A study of Arabidopsis thaliana with 4 samples.

Results

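The 31 genes described here belong to the core set of Arabidopsis genes known to rise under low oxygen, and lie outside the fermentation, sugar, oxygen-sensing and nitrate pathways that make up the better-known share of that set. They were chosen by locus identifier from a fixed list, and all 31 of 31 were found among the 27826 probe sets of the array, each with 1 probe set. Of the 31, 8 carry a name used here (HRA1, HRU1, ACR7, GPX8, UKL3, AGL44, EXL1 and ACHT5), and 23 are known here by their locus alone. The list was not drawn from the values of these arrays, but it was put together with earlier results of the same data known.

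RNA was measured in rosettes of Arabidopsis thaliana of the accession Columbia-0 (Col-0) at 4 weeks, on 2 arrays of the wild type and 2 arrays labelled 35S:∆13RAP2.12, below called the 35S arrays. RAP2.12 is a transcription factor, and the label stands for a shortened form of it driven by the 35S promoter of a plant virus, which works throughout the plant and is not tied to any cell type. Both groups had 2 days of stratification, a cold treatment of seeds, at 4 °C. They grew on soil with 12 h of light at 22 °C and nights at 18 °C and were harvested 10 h into the light. The labels describe no low-oxygen treatment. Neither the number of independent transgenic lines nor the number of plants behind an array is given in the sources used here, so the p-values below rest on a spread between arrays that may be technical. In whole rosettes a change in the RNA of each cell cannot be told apart from a change in the number of cells that hold it.

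In air, RAP2.12 and its relatives (the group VII ethylene response factors) are marked at their amino terminus by cysteine oxidases and broken down. When oxygen runs low they persist, enter the nucleus and switch on the core hypoxia genes, and a form without the amino terminus escapes this breakdown. The named genes treated here cover transcription factors (HRA1, AGL44), signalling proteins (HRU1, ACR7), redox proteins (GPX8, ACHT5) and proteins of metabolism and growth (UKL3, EXL1).

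Values are RMA expression values on a log2 scale, so a difference of 1 is a 2-fold change. The RAP2.12 transcript itself did not separate the groups: the wild-type arrays read 11.07 and 11.16 and the 35S arrays 11.28 and 11.06 (log2 difference 0.06, SE 0.13, limma adjusted p = 0.879). The label of the 35S arrays was thus not borne out by this probe set, whose position on the transcript is not known here, and directions below are those of the arrays so labelled. Of 12 markers fixed for leaf, root, pollen and seed, 0 passed the test, and the leaf markers RBCS1A, RCA and LHCB1.3 lay between 11.70 and 13.09 on all 4 arrays. The summed log2 level of the 3 root markers was 19.3 and 19.2 in the wild type and 19.9 and 20.4 on the 35S arrays, a difference carried by PYK10 (0.72, adjusted p = 0.102), while the root hair markers EXPA7 and COBL9 stayed between 4.38 and 4.74. The summed pollen markers were 10.1 and 11.6 against 10.0 and 11.1, and the seed markers 13.6 and 14.3 against 13.6 and 14.1. The part of root RNA in the results below was not tested.

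Most of these genes were higher on the 35S arrays. With limma, a gene was called where its p, adjusted by Benjamini-Hochberg for the whole array, was below 0.05, and 23 of 31 genes were higher, 0 were lower and 8 did not pass. Of all probe sets, 1.74% were called higher and 0.424% lower. All 23 called genes rose at least 2-fold, a rule that 1.67% of all probe sets met in that direction. The median log2 change of the 31 genes was 2.54, with quartiles of 1.22 and 3.69, beside a median of -0.04 over all probe sets. Of the 31 genes, 29 had both 35S arrays above both wild-type arrays, as had 19.5% of all probe sets, and the remaining 2, GPX8 and AT5G45960, had both 35S arrays below both wild-type arrays, as had 29.1% of all probe sets. The wild-type mean of 7 of the 31 genes lay below 4.82, the lower quartile of the mean levels of all probe sets, as did that of 25.5% of all probe sets. Among the 100 largest increases of the whole array, 10 were genes of this list, and 7 were among the 50 largest.

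With 2 arrays a group these counts lean on each array. When wild type replicate 1 was left out, no call remained, either in the list or on the whole array. The median log2 change of the 31 genes was then 2.76, beside -0.05 over all probe sets. That median was 2.50 without wild type replicate 2, 2.50 without 35S replicate 1 and 2.67 without 35S replicate 2. Over all probe sets it was -0.03, -0.03 and -0.05 in these fits. In each of the 4 fits with 1 array left out, fewer genes were called, both in the list and on the whole array. In each of those 4 fits 29 genes had a positive difference and 2 a negative one. This could not have come out otherwise, since no gene of the list overlapped between the groups on the 4 arrays. For a single gene, an exact permutation test of 2 arrays against 2 cannot give a two-sided p below 0.333.

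**Figure D1:**
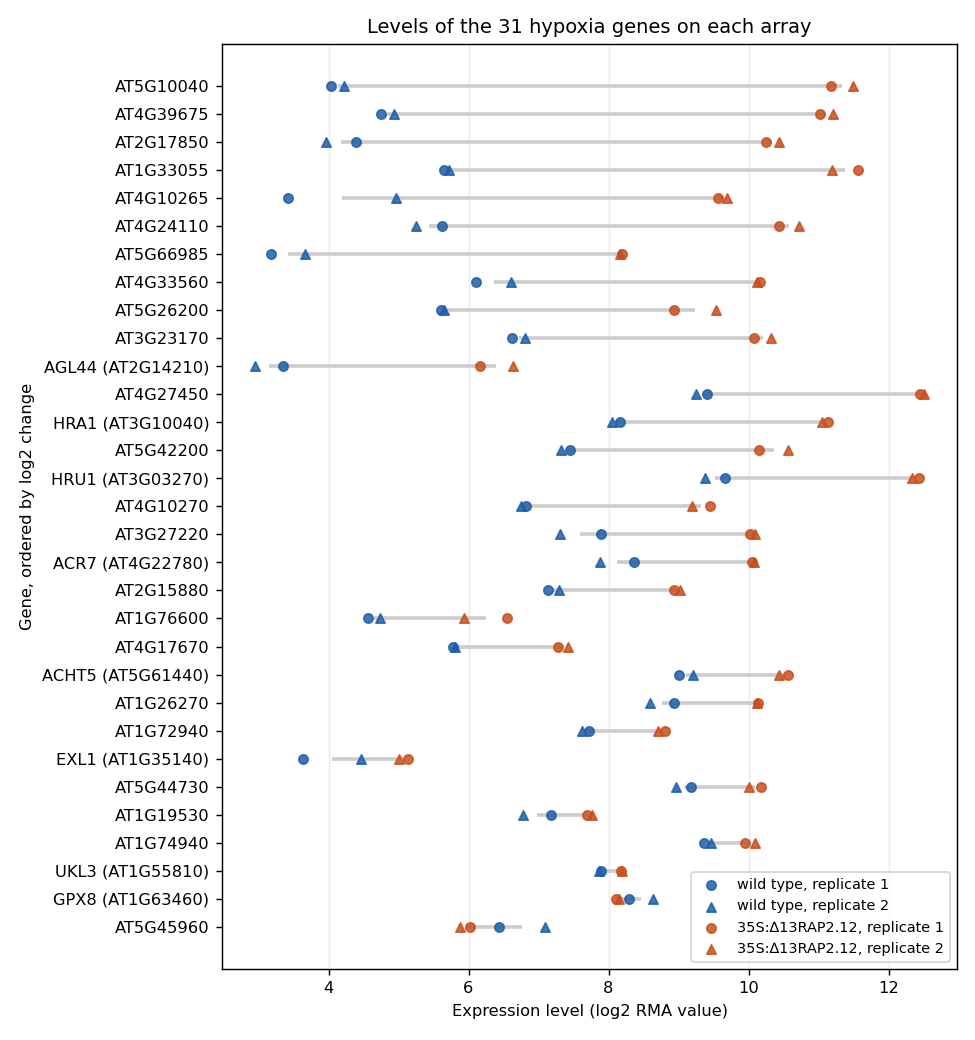
Expression level on the log2 RMA scale (horizontal axis) of each of the 31 genes (rows, ordered by log2 change) on the 4 arrays: blue for the wild type, orange for the arrays labelled 35S:∆13RAP2.12, circles for replicate 1 and triangles for replicate 2, with a grey bar joining the group means. In 29 rows both orange points lie to the right of both blue points, and in the lowest 2 rows, GPX8 and AT5G45960, they lie to the left.

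Among the transcription factors, HRA1 rose. HRA1 (AT3G10040) encodes a trihelix protein that is itself switched on by RAP2.12, binds it and dampens its activity. The wild-type arrays gave 8.17 and 8.06, the 35S arrays 11.13 and 11.05. The groups lay 2.89 apart at their closest, and the arrays within a group were nearly alike. The log2 change was 2.98 (SE 0.12, 95% interval 2.67 to 3.30, adjusted p = 0.00349), which is 7.90-fold.

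AGL44 (AT2G14210), also called ANR1, is a MADS-box factor known for its part in root growth in response to nitrate. It was at 3.35 and 2.95 in the wild type and at 6.16 and 6.63 on the 35S arrays. Both wild-type values were at the low end of the array's scale, below that lower quartile, where no detection call says whether they exceed background. The log2 change was 3.25 (SE 0.23, 95% interval 2.64 to 3.86, adjusted p = 0.0105), the largest among the 8 named genes, and its exact size is not determined with such low wild-type values.

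Both signalling proteins rose. HRU1 (AT3G03270) is a universal stress protein known to link low oxygen to the production of hydrogen peroxide. It stood at 9.66 and 9.38 on the wild-type arrays and at 12.43 and 12.34 on the 35S arrays. No array of either group came near the other group, and the change of 2.86 (SE 0.15, adjusted p = 0.00552) was 7.28-fold. ACR7 (AT4G22780) belongs to a family built of ACT domains, folds that in other proteins bind amino acids. It was at 8.36 and 7.88 in the wild type and at 10.05 and 10.08 on the 35S arrays. The wild-type arrays of ACR7 differed by 0.48 and the 35S arrays by 0.03, and the log2 change was 1.95 (SE 0.19, adjusted p = 0.0240).

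Of the 2 redox proteins, 1 was called. ACHT5 (AT5G61440), an atypical thioredoxin, rose from 9.01 and 9.21 to 10.57 and 10.43, a log2 change of 1.39 (SE 0.14, adjusted p = 0.0225) or 2.62-fold. GPX8 (AT1G63460) belongs to the glutathione peroxidases, which in plants reduce peroxides with electrons from thioredoxin. It did not pass: its level was 8.29 and 8.64 in the wild type and 8.11 and 8.15 on the 35S arrays, a difference of -0.34 (95% interval -0.76 to 0.09, adjusted p = 0.408). The nearest arrays of the groups lay 0.14 apart for GPX8, less than the 0.35 between its wild-type arrays. The difference of GPX8 was -0.51 with wild type replicate 1 left out and -0.16 with replicate 2 left out, so each of these arrays moved it by more than 1.5 times.

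Neither gene of metabolism and growth passed. UKL3 (AT1G55810) encodes a uridine kinase-like enzyme of the salvage of pyrimidines. Its values were 7.89 and 7.87 in the wild type and 8.18 and 8.19 on the 35S arrays, a difference of 0.30 (SE 0.11, 95% interval 0.01 to 0.60, adjusted p = 0.291). The arrays of UKL3 were close together within each group, and the groups did not overlap but lay only 0.29 apart at their closest. The interval lies above 0 and below a 2-fold change. EXL1 (AT1G35140), an exordium-like protein known for growth when carbon is short, was at 3.63 and 4.46 against 5.14 and 5.01. Its difference of 1.03 (95% interval 0.24 to 1.82, adjusted p = 0.210) came with wild-type arrays that lay 0.83 apart and below the lower quartile of mean levels. It was 0.62 with wild type replicate 1 left out and 1.44 with replicate 2 left out. Of the 8 named genes, 5 were thus called higher and 3 did not pass, with a median change of 1.67.

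The genes known by locus alone held the largest changes. Of these 23 genes, 18 were called higher and 5 did not pass, and their median change was 2.97. All 7 genes of the list that differed by at least 16-fold, a log2 change of 4, were among them, and 0 of the named genes were. Whether the named and the unnamed genes differ in response was not tested, and the list was known to hold these changes when it was put together.

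AT5G10040 had the largest difference. Its level was 4.04 and 4.21 in the wild type and 11.17 and 11.49 on the 35S arrays, a change of 7.20 (95% interval 6.78 to 7.63, adjusted p = 0.00173). AT4G39675 went from 4.74 and 4.94 to 11.02 and 11.20 (6.27, 95% interval 5.90 to 6.64). For both genes the replicates were close, and the nearest arrays of the groups lay 6.96 and 6.09 apart. AT2G17850 was at 4.39 and 3.96 against 10.24 and 10.44 (6.17, adjusted p = 0.00277). AT1G33055 was at 5.65 and 5.72 against 11.56 and 11.19 (5.69, adjusted p = 0.00277). The wild-type mean was below the lower quartile of mean levels for AT5G10040 and AT2G17850 and above it for AT1G33055.

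AT4G10265 had the widest error of the list. Its wild-type arrays read 3.42 and 4.97, a gap of 1.55, while its 35S arrays read 9.57 and 9.70. The change of 5.44 had an SE of 0.53 and a 95% interval of 4.04 to 6.83 (adjusted p = 0.0223), and it was 4.67 with wild type replicate 1 left out and 6.21 with replicate 2 left out. The remaining differences of at least 16-fold were those of AT4G24110 and AT5G66985. AT4G24110 was at 5.62 and 5.26 against 10.44 and 10.72 (5.14, adjusted p = 0.00338). AT5G66985 was at 3.17 and 3.66 against 8.20 and 8.16 (4.76, adjusted p = 0.00374). In AT5G66985, too, the wild-type values lie at the low end of the scale.

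A middle range of 7 genes known by locus rose between 2.46 and 3.78 on the log2 scale. AT4G33560 went from 6.11 and 6.60 to 10.16 and 10.12 (3.78, SE 0.20, adjusted p = 0.00555). AT5G26200 went from 5.61 and 5.65 to 8.93 and 9.54 (3.60, SE 0.23, adjusted p = 0.00753), and its 35S arrays lay 0.60 apart where its wild-type arrays nearly coincided. AT3G23170 went from 6.62 and 6.81 to 10.08 and 10.32 (3.49, SE 0.15, adjusted p = 0.00430). In these 3 genes no array came within 3 log2 units of the other group. AT4G27450 went from 9.41 and 9.25 to 12.45 and 12.51, with a change of 3.15 (SE 0.12, adjusted p = 0.00349). AT5G42200 rose by 2.97, AT4G10270 by 2.54 and AT3G27220 by 2.46, with adjusted p of 0.00690, 0.00614 and 0.0200. AT3G27220 had wild-type arrays at 7.89 and 7.30, and its 35S arrays at 10.02 and 10.10 were much closer to each other.

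Smaller increases were called for 4 genes known by locus. AT2G15880 went from 7.13 and 7.29 to 8.93 and 9.02 (1.76, SE 0.12, adjusted p = 0.0105). AT4G17670 went from 5.77 and 5.81 to 7.27 and 7.42 (1.55, SE 0.12, adjusted p = 0.0131). AT1G26270 was called at 1.37 (adjusted p = 0.0336), with wild-type arrays 0.33 apart and 35S arrays 0.02 apart. AT1G72940, the smallest called change of the list at 1.08 (SE 0.12, adjusted p = 0.0312), was at 7.72 and 7.62 against 8.81 and 8.71. This was the 1 call of the list that was lost with the replicate number as a block (adjusted p = 0.0536).

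The 5 genes known by locus that did not pass were of several kinds. AT1G76600 was at 4.56 and 4.73 in the wild type, below the lower quartile of mean levels, and at 6.55 and 5.94 on the 35S arrays. Its difference of 1.60 (95% interval 0.97 to 2.23, adjusted p = 0.0610) was above those of 4 called genes, AT4G17670, ACHT5, AT1G26270 and AT1G72940, but its 35S arrays lay 0.61 apart. AT5G44730 was at 9.18 and 8.96 against 10.18 and 10.00 (1.02, 95% interval 0.64 to 1.41, adjusted p = 0.0556). Both genes lay just outside the threshold, and both passed when the prior variance followed the level (adjusted p = 0.0144 and 0.00184). AT1G19530 differed by 0.75 (95% interval 0.29 to 1.20, adjusted p = 0.146). AT1G74940 differed by 0.60 (95% interval 0.28 to 0.93, adjusted p = 0.113), and passed with the prior variance following the level (adjusted p = 0.0123). The intervals of AT1G19530 and AT1G74940 lie above 0 and their groups did not overlap.

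AT5G45960 had the opposite sign. It was at 6.43 and 7.09 in the wild type and at 6.02 and 5.88 on the 35S arrays, a difference of -0.81 (95% interval -1.47 to -0.16, adjusted p = 0.228). Its wild-type arrays lay 0.66 apart, more than the 0.42 between the nearest arrays of the groups. The difference was -1.14 with wild type replicate 1 left out and -0.49 with replicate 2 left out, so 1 wild-type array moved it by more than 1.5 times.

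**Figure D2:**
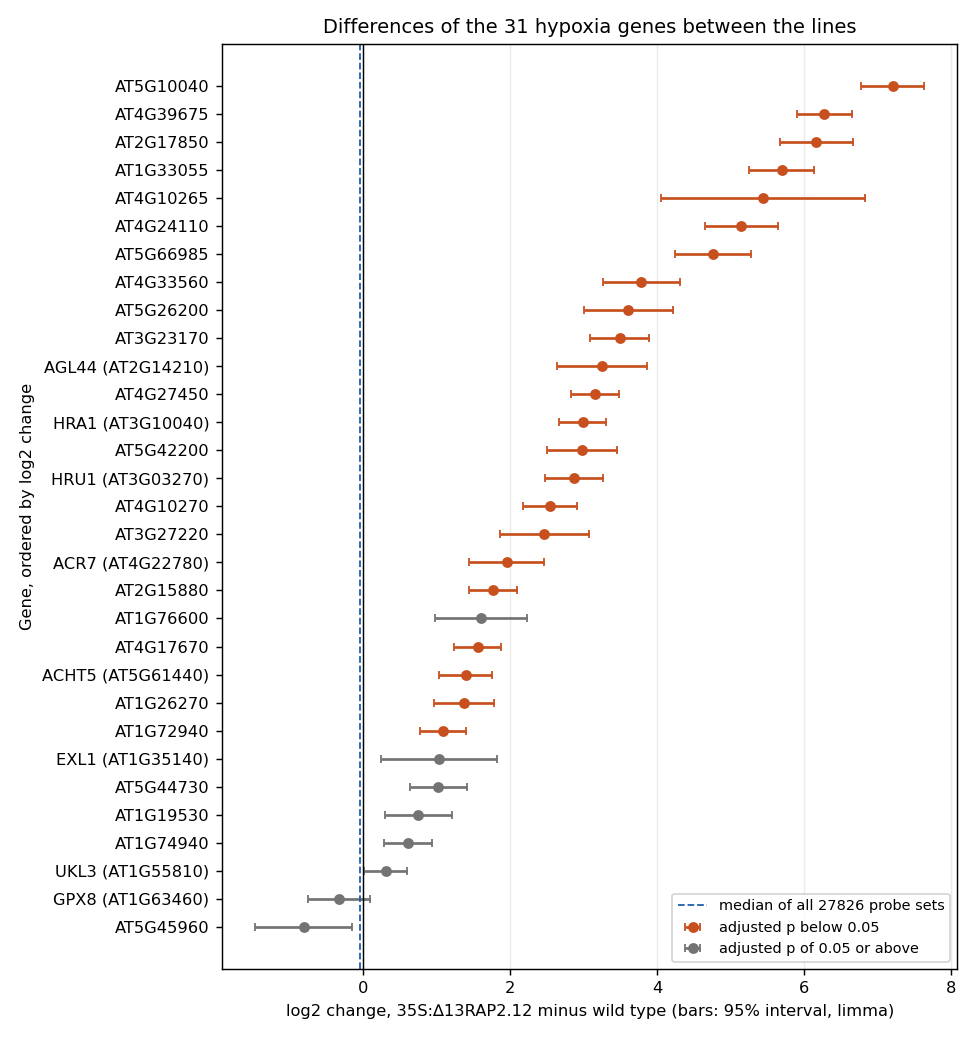
The log2 change of each of the 31 genes, 35S:∆13RAP2.12 minus wild type (horizontal axis), with 95% intervals from limma, in orange where the adjusted p was below 0.05 and in grey otherwise. The values run from -0.81 for AT5G45960 to 7.20 for AT5G10040, AT4G10265 has the widest interval, and the dashed line marks the median of all probe sets at -0.04.

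The gap between the arrays of a line was wider in the wild type for most of these genes. The median absolute gap of the 31 genes was 0.20 between the wild-type arrays and 0.13 between the 35S arrays, and in 21 of 31 genes the 35S gap was the smaller one. Over all probe sets the median gaps were 0.18 and 0.15, and the 35S gap was the smaller one in 55.1%. Gaps of at least 0.5 were found in the wild type for 4 genes, AT4G10265, EXL1, AT5G45960 and AT3G27220, and among the 35S arrays for 2, AT1G76600 and AT5G26200. Of all probe sets, 12.3% and 11.0% had such gaps. The gaps had no shared direction, since 16 of 31 genes were higher on wild type replicate 2 than on replicate 1 (50.4% of all probe sets) and 15 were lower.

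The other core hypoxia genes, most of them of known pathways, were set beside the 31 genes. This list was written down by locus from knowledge of the field. Earlier results of these data were known by then, so it is not an independent base for comparison. It holds 24 genes, such as those for fermentation enzymes, sucrose synthases, cysteine oxidases and phytoglobin. Of these, 16 were called higher, 0 lower and 8 did not pass, with a median change of 3.10, beside 23 of 31 and 2.54 for the genes described above. The largest called changes of the other list were 7.02 for CML38, a calmodulin-like protein, 5.13 for SAD6, a fatty acid desaturase, and 5.13 for the pyruvate decarboxylase PDC1. The wild-type means of CML38 (3.56) and PDC1 (4.73) lay below the lower quartile of mean levels, so the exact sizes are not determined. Those that did not pass were ACO1 (1.43) and TPPJ (1.36), followed by RBOHD (0.54), PDC2 (0.51), PFK6 (0.44), AT4G17260 (0.30), AT3G10020 (0.15) and HRE1 (-0.10). HRE1 lay below that quartile in both groups, at 3.66 and 4.22 in the wild type and 3.88 and 3.80 on the 35S arrays. No test was made of a difference between the lists. Between the wild-type arrays, the other list had a median absolute gap of 0.33, and between the 35S arrays the median gap was 0.08. In the wild type 9 of 24 genes had a gap of 0.5 or more, beside 12.3% of all probe sets. The 6 of them that were lower on replicate 2 had wild-type means from 6.37 to 9.03. The 3 that were higher read 3.09, 3.66 and 4.71 on wild type replicate 1, below the lower quartile of mean levels.

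**Figure D3:**
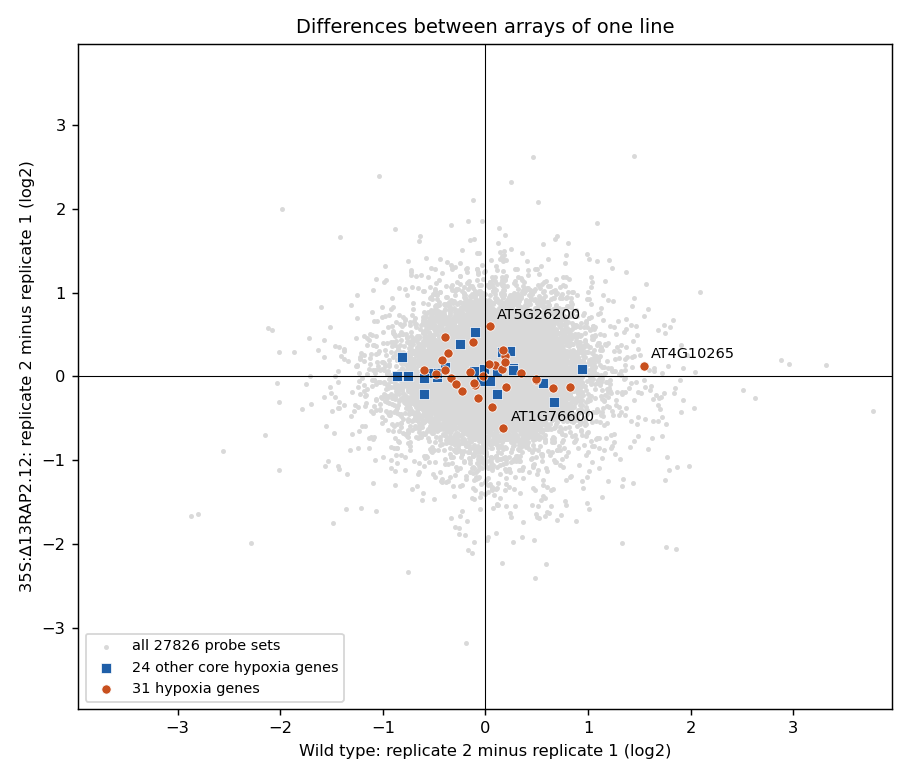
For each probe set, the difference between replicate 2 and replicate 1 in the wild type (horizontal axis, log2) and between the 35S arrays (vertical axis, log2): grey for all 27826 probe sets, blue squares for the 24 other core hypoxia genes, orange circles for the 31 genes described here. AT4G10265 stands far to the right with a wild-type gap of 1.55, AT5G26200 (0.60) and AT1G76600 (-0.61) mark the widest 35S gaps, and the blue squares spread more along the horizontal axis than along the vertical.

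The genes on either side of the 31 genes were then set beside them, a step added after the values of the 31 genes were seen. Gene order came from the TAIR10.1 reference table, in which all 31 loci were found, and a neighbour was the nearest locus with a probe set. AT4G10265 and AT4G10270 were neighbours of each other. Without these, there were 60 neighbouring genes, of which 5 were called higher (8.33%, beside 1.74% of all probe sets) and 0 lower, and their median change was 0.06. Most neighbours thus did not pass. Beside AT5G10040, the overlapping gene TGA4 differed by 0.02 (adjusted p = 0.969) and AT5G10050 on the other side was called at 1.24. Beside AT4G39675, AT4G39680 differed by -0.06 (adjusted p = 0.869) and AT4G39670 by 1.48 (adjusted p = 0.115), and AT2G17845 beside AT2G17850 was called at 1.41. Each of the 3 largest changes of the list thus had a neighbour with a difference above 2-fold, and for AT4G39675 that neighbour did not pass. Among the 60 neighbours, 6 rose at least 2-fold. For the other changes of at least 16-fold, AT4G10265 had such a neighbour too (AT4G10260, 4.30). AT1G33055, AT4G24110 and AT5G66985 had none, with neighbours between -0.15 and 0.76. Whether the size of a change goes with that of its neighbours was not tested.

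A run of 3 adjacent loci was higher together. AT4G10260, which is next to AT4G10265 and is not on the list, went from 4.14 and 4.13 to 8.33 and 8.55, a change of 4.30 (SE 0.13, adjusted p = 0.00277). Its wild-type values, like the wild-type mean of AT4G10265, lay below the lower quartile of mean levels, so the exact sizes are not determined. With AT4G10265 at 5.44 and AT4G10270 at 2.54, all 3 rose at least 4-fold. The loci at the ends of this run did not pass: AT4G10280, which overlaps AT4G10270 in the reference table, differed by -0.41 (adjusted p = 0.230), and AT4G10250, beyond AT4G10260, by 0.41 (adjusted p = 0.335). Whether the probes of AT4G10265 and AT4G10270 also read each other's RNA was not tested, since probe sequences were not used here.

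The other called neighbours were AT4G17660 beside AT4G17670, AT2G17845 beside AT2G17850, AT1G19540 beside AT1G19530 and AT5G10050 beside AT5G10040. AT4G17660 went from 4.42 and 4.50 to 7.28 and 6.68 (2.52, SE 0.23, adjusted p = 0.0197), a larger change than the 1.55 of AT4G17670 itself. Both wild-type values of AT4G17660 lay below the lower quartile of mean levels, so the exact size of its change is not determined. AT1G19540 went from 6.80 and 6.35 to 7.96 and 8.01 (1.41, SE 0.18, adjusted p = 0.0468), while AT1G19530 beside it did not pass at 0.75. In these pairs the neighbour outside the list had the larger difference, and the difference within a pair was not tested. AT2G17845 rose by 1.41 (adjusted p = 0.0220) and AT5G10050 by 1.24 (adjusted p = 0.0403), both far less than AT2G17850 and AT5G10040. The wild-type values of AT2G17845, 4.67 and 4.43, also lay below that quartile. Beside AT5G45960, the gene of the list with the lowest difference, AT5G45950 was at 11.06 and 11.07 against 10.12 and 10.26 (-0.87, adjusted p = 0.0510) and RAC2 differed by -0.72 (adjusted p = 0.334), and neither passed.

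**Figure D4:**
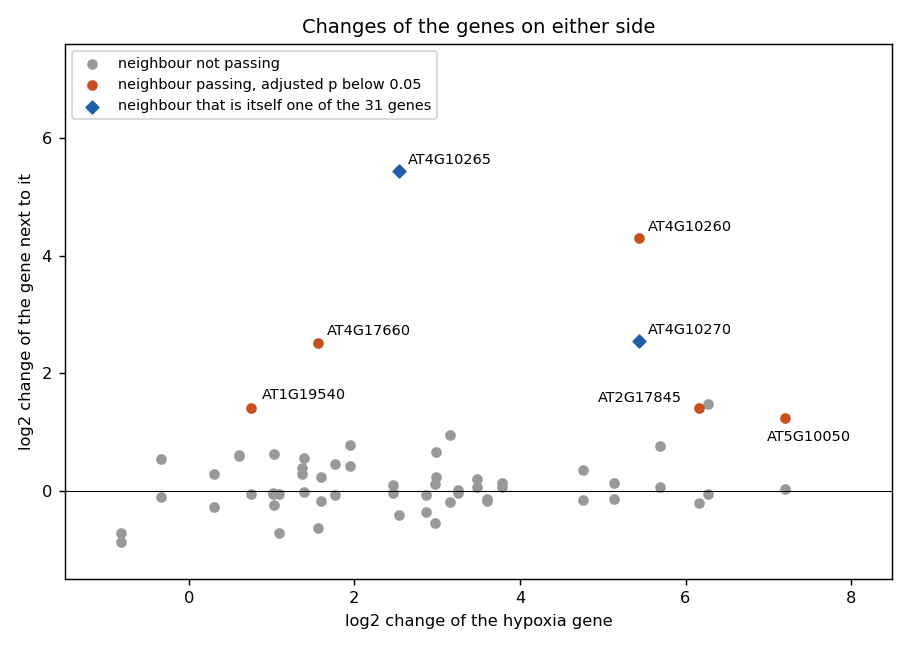
The log2 change of each of the 31 genes (horizontal axis) and of the gene on either side of it (vertical axis), both as 35S:∆13RAP2.12 minus wild type: orange for neighbours with an adjusted p below 0.05, grey for those above it, blue diamonds for AT4G10265 and AT4G10270, which are neighbours of each other. Most grey points lie near 0 whatever the change of the hypoxia gene, and AT4G10260 at 4.30 is the highest neighbour outside the list.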

How the data were processed

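RNA of 4 Arabidopsis rosette samples was measured on Affymetrix arrays, 2 for each group, with groups and replicate numbers from the sample titles. More arrays than these 4 are described for the series; those were not analysed here. Per the submitters' processing notes, the authors made the deposited values with RMA, a background correction followed by quantile normalization between arrays and a summary of each probe set. They are on the log2 scale, as their range shows. Software, probe set definition and genome build are not stated in the labels, and coordinates are left out. Detection calls were not used, and the number of arrays limits the precision.

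All 27826 probe sets were fitted with limma 3.58.1 in R 4.3.3 (lmFit, eBayes, no covariates) on the deposited log2 values, with no filter and Benjamini-Hochberg adjustment over all of them. There were 2 residual and 2.55 prior degrees of freedom. Errors are moderated standard errors, intervals are 95%, and a call needed an adjusted p below 0.05. The fit was also run on 5 simulated data sets in which the gene variances were shuffled over genes. Those runs lack the link between level and variance and are no support for the calls made here. The members, gene lists and tests were chosen with earlier results of these data known. Named genes were all 31 members, RAP2.12, the fixed cell type markers, and of the other core genes the 3 largest called changes and all that did not pass. The neighbouring genes were added after values were seen and are named outside this rule. Gene order came from the TAIR10.1 reference table, and names are its symbols or synonyms (HRA1, EXL1, PDC1, SAD6, HRE1, LHCB1.3 and COBL9 are synonyms there), except HRU1, a name given with the list.

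Alternatives were a replicate block, eBayes with a trend or robust, array weights, a low-signal filter (mean level at or above the 25th percentile), renormalization by quantiles or medians, each array left out, and adjusted p thresholds of 0.01 and 0.10. Plots used matplotlib 3.10.9 and Python 3.11.15.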

Additional observations from a re-analysis of the deposited data

How the results depend on the processing

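The 31 genes kept the sign of their differences in all 11 alternative fits that measured them, but most of these fits could not have changed it. The block, trend, robust, array weight and filter fits gave these genes the same differences as the main fit. With 1 array left out no sign could turn, since no gene of the list overlapped between the groups. Only the renormalizations could have turned a sign. The number called higher was 22 with the replicate number as a block and 26 with an intensity trend, beside 1.56% and 3.74% of all probe sets. It was 23 with robust eBayes, array weights and median centring, beside 1.58%, 1.68% and 1.73%. With quantile normalization applied again it was 24, beside 1.77%. The low-signal filter left out AGL44 and EXL1, and 5 further genes with a wild-type mean below it passed only through their 35S values, so its count of 24 called among 29 is no support. The number called higher was 14 at an adjusted p below 0.01 and 25 below 0.10, beside 0.539% and 2.98% of all probe sets. Changes of at least 2-fold gave 14 at the stricter threshold. When single arrays were left out, the number called higher ranged from 0 to 17, the same range held for changes of at least 2-fold, and the median change of the 31 genes ranged from 2.50 to 2.76. The other core hypoxia genes called higher ranged from 0 to 12 in those fits. The count over all probe sets was 603, and 1759 with an intensity trend, 160 at an adjusted p below 0.01, 1203 below 0.10, 515 with the replicate block, and 0 to 315 with 1 array left out. The difference of RAP2.12 ranged from -0.053 to 0.17 with 1 array left out, and its sign turned to -0.053 without replicate 1 of the 35S arrays. The fits with 1 array left out assume that the lone array varies like the other group, and the smaller number of arrays lowers their counts. The replicate numbers pair samples by number only (correlation of the replicate differences across probe sets 0.03).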
